A study of Mus musculus with 12 samples.

Results

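Interferon-induced genes are the genes that cells switch on after an interferon binds its receptor. The 9 described here are Oas2, Oasl2, Rsad2, Isg15, Irf7, Ifit1, Ifit3, Cxcl9 and Cxcl10, and their 12 probes were all those that carried one of these symbols, out of 25697 probes and 16593 named genes on the array. They were measured in whole lung of female mice of the strain C57BL/6N that were kept free of specific pathogens. Lungs of mice exposed to cigarette smoke and of control mice were taken at 4 months and at 6 months of age, with 3 arrays in each of the 4 groups, so that the groups differed in exposure and age and shared sex, strain and housing. The labels give neither the dose nor the length of the exposure, and they call the samples biological replicates. The series is about chronic obstructive pulmonary disease and follows lymphoid tissue and macrophages in lungs exposed to smoke.

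Type I interferons signal through the receptor chains IFNAR1 and IFNAR2 and interferon-gamma through IFNGR1 and IFNGR2. Type I interferon signalling acts, through a complex with STAT2 and IRF9, on the interferon-stimulated response element (ISRE), and interferon-gamma signalling acts on the gamma-activated site (GAS). Oas2 makes the second messenger that activates the antiviral nuclease RNase L, and Oasl2 is a relative of the same family. Rsad2 is the antiviral enzyme viperin, Isg15 a ubiquitin-like protein that is attached to other proteins, and Ifit1 and Ifit3 are tetratricopeptide proteins of the antiviral response, of which Ifit1 binds foreign RNA. Irf7 is the transcription factor that amplifies type I interferon production. Cxcl9 and Cxcl10 are secreted chemokines that attract T and natural killer (NK) cells through the receptor CXCR3, and Cxcl9 depends mostly on interferon-gamma.

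The promoters are shown because the members are all induced by interferons, though not all by the same one. Genes with and without the same motif can then be set beside their values. RefSeq windows of 250 bases before each gene's start (build GRCm38.p6) matched 8 of the 9 members, all but Oas2. An ISRE core, searched as GAAANNGAAA on both strands, lay in 5 of these 8 windows (62.5%), against 2.98% of all 32851 windows searched. The 5 stretches are given 5′ to 3′ on the strand of the gene, with the motif matches in capitals: ISRE cores in every line and, in the Cxcl10 line, also the pair of matches to the NF-kappaB consensus that come after the first run of capitals. Where the capitals read TTTC first, the core lies on the other strand, and the long run of Isg15 holds overlapping matches.
Rsad2: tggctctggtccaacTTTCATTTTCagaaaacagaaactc
Isg15: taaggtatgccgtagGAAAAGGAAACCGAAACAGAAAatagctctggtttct
Ifit1: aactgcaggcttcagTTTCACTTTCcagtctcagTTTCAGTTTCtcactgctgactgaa
Ifit3: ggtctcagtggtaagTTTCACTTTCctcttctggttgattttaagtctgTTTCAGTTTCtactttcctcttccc
Cxcl10: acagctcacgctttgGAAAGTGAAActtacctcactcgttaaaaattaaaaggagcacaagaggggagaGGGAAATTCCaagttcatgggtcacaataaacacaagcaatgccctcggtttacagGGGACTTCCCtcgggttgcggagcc
The Rsad2 stretch is chr12:26456548-26456587 (minus strand) and its core begins 120 bases before the start. The Isg15 stretch is chr4:156200860-156200911 (minus strand), with the run beginning 78 bases before the start. Ifit1 and Ifit3 lie on the plus strand of the same chromosome, with stretches at chr19:34640770-34640828 and chr19:34583358-34583431, and each holds 2 cores. The Ifit1 cores begin 104 and 85 bases before the start and those of Ifit3 156 and 122 bases before it. The Cxcl10 stretch is chr5:92348968-92349117 (minus strand), with 1 ISRE core 213 bases before the start and NF-kappaB matches at 159 and 103 bases. The windows of Oasl2, Irf7 and Cxcl9 held no match to the ISRE core. No member's window held a GAS match (TTCNNNGAA, found in 7.02% of all windows), and only that of Cxcl10 held the NF-kappaB consensus (3.90% of all windows). A match is a run of letters and not a measured binding site.

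Median raw intensities ran from 18 to 28 over the 12 arrays, and between 55.1 and 57.6% of the probes on an array were detected. The medians were 28, 25 and 26 on the smoke arrays of 4 months and 18, 20 and 20 on those of 6 months. These 2 smoke groups were thus apart before normalization. The control medians were 21, 22 and 26 at 4 months and 25, 19 and 18 at 6 months. The tissue label was checked with 10 lung genes fixed as markers, of which 9 were tested. Their mean log2 level was 11.42 to 11.73 on every array and none passed the test at either age. At limma's unadjusted p below 0.05, 1 of these 9 was lower in smoke at 4 months and 3 at 6 months. None was higher by that count (14.8 and 17.4% of all genes were counted in either direction). Levels below are normalized log2 intensities of 1 array. Changes are differences of log2 group means, and a gene passed where its limma adjusted p, taken over all 15490 probes tested, was below 0.05. A level depends on the probe as well as on the RNA, so levels are compared between groups and not between genes. In RNA of whole lung, fewer cells of a type and less RNA per cell cannot be told apart. Of the members, 8 genes with 11 probes were detected on enough arrays to be tested. Ifit1 was detected on none of the 12 arrays and had a raw intensity of -4 to 9, so it has no change here.

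**Figure D1:**
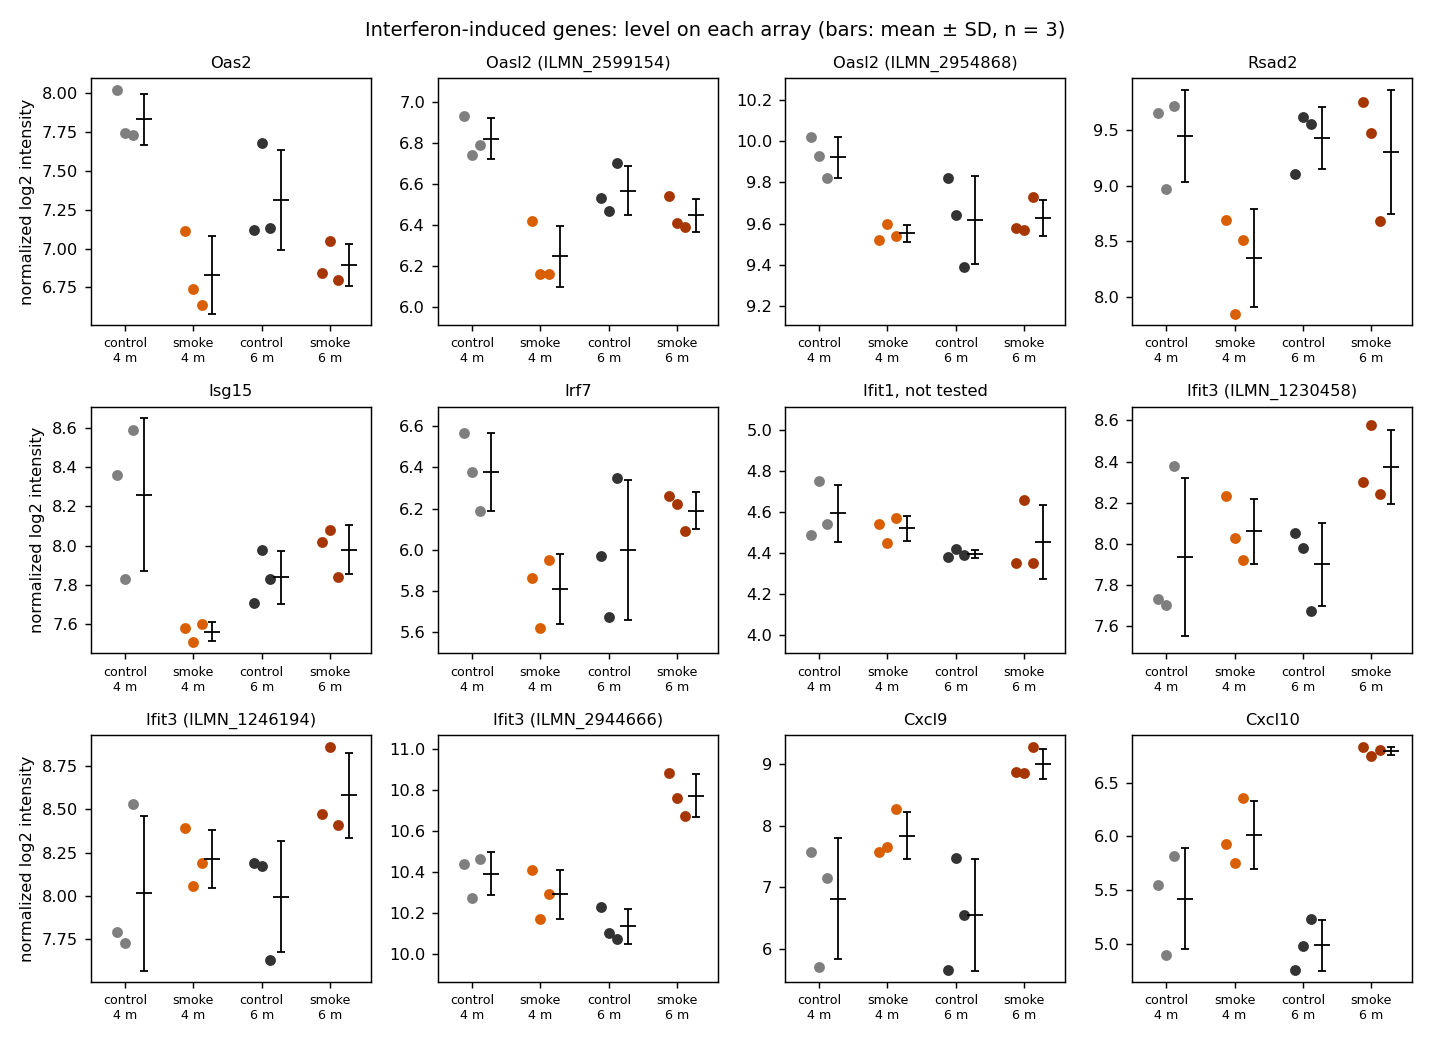
Normalized log2 intensity of the 12 probes, 1 panel a probe, by group (control and smoke, 4 and 6 months); each point is 1 array and the bars are mean ± SD (n = 3). Ifit1 was not detected, and the vertical axes differ between panels and do not start at 0. At 4 months the smoke arrays of Oas2, Oasl2, Rsad2, Isg15 and Irf7 lie below the control arrays, and at 6 months those of Ifit3, Cxcl9 and Cxcl10 lie above them.

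At 4 months, the lungs of smoke-exposed mice held less RNA of Oas2 than control lungs. Oasl2, Rsad2, Isg15 and Irf7 also lay lower on every smoke array, but of these only 1 of the 2 Oasl2 probes passed the test. The 2 chemokines had higher means in smoke, and neither passed. Of the 8 tested members, 1 was called lower, when 0.37% of all 10541 tested genes were, and none was called higher (1.28% of all genes). The 3 smoke arrays lay below the 3 control arrays, with no overlap, in 5 of the 8 members, against 12% of all genes. By probe, 2 of 11 were called lower, against 0.329% of all tested probes. The median change of the members was -0.47 and that of all genes -0.03.

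Oas2 read 8.02, 7.74 and 7.73 in the 3 control lungs and 7.11, 6.74 and 6.64 in the 3 smoke lungs at 4 months. Every smoke array was below every control array, and the RNA was 2.00-fold lower. Oas2 fell by 1.00 (SE 0.17, limma adjusted p = 0.00919). Without smoke replicate 2 or 3 at 4 months the limma adjusted p of Oas2 was 0.0506 and 0.0602, with changes of -0.96 and -0.91, so that none of the 8 members passed then.

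Oasl2 has 2 probes, which moved alike and differed in whether they passed. Probe ILMN_2599154 read 6.93, 6.74 and 6.79 in control and 6.42, 6.16 and 6.16 in smoke lungs. It fell by 0.57 (SE 0.11, limma adjusted p = 0.0211), with no overlap of the groups. The adjusted p of that probe was 0.119, 0.112 and 0.0897 without smoke replicate 2, smoke replicate 3 or control replicate 1 at 4 months, and 0.0719 with the 4-month arrays fitted alone. Probe ILMN_2954868, the brighter one, which stands for the gene in the counts, read 10.02, 9.93 and 9.82 in control and 9.52, 9.60 and 9.54 in smoke lungs. These groups did not overlap either, and the change of -0.37 (SE 0.12) did not pass (limma adjusted p = 0.181). The mean over both Oasl2 probes changed by -0.47 and passed (limma adjusted p = 0.0159).

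Rsad2, the viperin gene, had the lowest estimate of the members at 4 months. It read 9.66, 8.97 and 9.72 in control lungs and 8.69, 7.85 and 8.51 in smoke lungs. The groups did not overlap, replicate 2 was the lowest array of each group, and the change of -1.10 (SE 0.30) did not pass (limma adjusted p = 0.113). Isg15 read 8.36, 7.83 and 8.59 in control lungs and 7.58, 7.51 and 7.60 in smoke lungs. The smoke arrays were close together and all below the control arrays, of which replicate 2 was the lowest. Its change of -0.70 (SE 0.16, limma adjusted p = 0.0592) did not pass, and without control replicate 2 it was -0.91 with a limma adjusted p of 0.00487.

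Irf7 was a dim probe, at 6.57, 6.38 and 6.19 in control and 5.86, 5.62 and 5.95 in smoke lungs. The groups did not overlap, and the change of -0.57 (SE 0.16) did not pass (limma adjusted p = 0.138). Ifit3, in contrast, had overlapping groups on each of its 3 probes. Its brightest probe, ILMN_2944666, read 10.44, 10.27 and 10.46 in control and 10.41, 10.17 and 10.29 in smoke lungs, a change of -0.10 (95% interval -0.33 to 0.13). The others, ILMN_1230458 and ILMN_1246194, changed by 0.13 and 0.20, and the limma adjusted p of the 3 probes was 0.695 to 0.781. The sign of the Ifit3 estimate at 4 months thus depends on the probe.

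The chemokines had higher means in smoke at 4 months, with overlapping groups. Cxcl9 read 7.58, 5.71 and 7.16 in control and 7.58, 7.66 and 8.28 in smoke lungs. Its change of 1.02 (SE 0.47, limma adjusted p = 0.350) did not pass and was 0.47 without control replicate 2, the lowest array. Cxcl10 read 5.55, 4.90 and 5.82 in control and 5.93, 5.75 and 6.36 in smoke lungs, and it was detected on 2 of the 3 control and on all 3 smoke arrays. The change of 0.59 (SE 0.22) did not pass (limma adjusted p = 0.245), and smoke replicate 2 lay within the range of the control arrays. Without control replicate 2 the change was 0.33.

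At 6 months, the chemokines and Ifit3 were higher in smoke-exposed lungs than in controls. Cxcl9 was 5.46-fold, Cxcl10 3.49-fold and Ifit3 1.56-fold higher. Of the 8 tested members, 3 were called higher, against 3.35% of all tested genes, and none was called lower (1.73%). The groups did not overlap for these 3 genes (10.7% of all genes, higher) and for Oas2, which was lower on all smoke arrays (11% of all genes, lower). By probe, 3 of 11 were called higher, against 2.98% of all tested probes. The median change of the members was 0.17, and that of all genes -0.02.

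Cxcl9 read 5.65, 7.47 and 6.55 in control and 8.87, 8.86 and 9.29 in smoke lungs at 6 months. The control arrays spread widely and the smoke arrays were close together, all above the controls. Cxcl9 rose by 2.45 (SE 0.47, limma adjusted p = 0.00903). Without smoke replicate 3 at 6 months its change was 2.31 with a limma adjusted p of 0.0503. Cxcl10 read 4.76, 4.98 and 5.23 in control and 6.83, 6.75 and 6.80 in smoke lungs, and it was again detected on 2 of the 3 control and on all 3 smoke arrays. It rose by 1.80 (SE 0.22, 95% interval 1.33 to 2.27, limma adjusted p = 0.000444) and passed without any 1 of the 12 arrays. The size depends on the treatment of low values, at 1.14 with an offset of 50 and 2.42 with no further background correction, and it passed in both.

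Ifit3 was higher in smoke on each of its 3 probes at 6 months, with no overlap. The brightest read 10.23, 10.10 and 10.07 in control and 10.88, 10.76 and 10.67 in smoke lungs. It rose by 0.64 (SE 0.11, limma adjusted p = 0.00414), and it passed without any 1 array. Probe ILMN_1230458 read 8.05, 7.98 and 7.67 in control and 8.30, 8.58 and 8.24 in smoke lungs (change 0.47, limma adjusted p = 0.190). Probe ILMN_1246194 read 8.19, 8.17 and 7.63 in control and 8.47, 8.86 and 8.41 in smoke lungs (change 0.58, limma adjusted p = 0.176). The 2 dimmer probes did not pass, and the mean over the 3 probes changed by 0.57 with a limma adjusted p of 0.0540.

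The other 5 members did not pass at 6 months, and of these only Oas2 still lay lower on every smoke array. Oas2 read 7.12, 7.68 and 7.13 in control and 6.84, 7.05 and 6.80 in smoke lungs. The groups did not overlap, and the change of -0.41 (SE 0.17) did not pass (limma adjusted p = 0.229) and was -0.23 without control replicate 2. Isg15 read 7.71, 7.98 and 7.83 in control and 8.02, 8.08 and 7.84 in smoke lungs, with a change of 0.14 (95% interval -0.21 to 0.49). Irf7 read 5.97, 5.67 and 6.35 in control and 6.26, 6.22 and 6.09 in smoke lungs, with a change of 0.19 (95% interval -0.16 to 0.55). In both genes the arrays of the 2 groups overlapped.

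Rsad2 read 9.11, 9.62 and 9.56 in control and 9.76, 9.48 and 8.68 in smoke lungs at 6 months. Its groups overlapped, smoke replicate 3 being the lowest of the 6 arrays, and the change was -0.12 (95% interval -0.77 to 0.52), or 0.19 without that array. The Oasl2 probe ILMN_2954868 read 9.82, 9.64 and 9.39 in control and 9.58, 9.57 and 9.73 in smoke lungs, a change of 0.01 (95% interval -0.24 to 0.27) whose sign turned with arrays scaled to equal medians. The other Oasl2 probe read 6.53, 6.47 and 6.70 in control and 6.54, 6.41 and 6.39 in smoke lungs, a change of -0.12 (95% interval -0.36 to 0.12). These intervals give the precision of each estimate with 3 arrays a group and are not a limit of detection. Oas2 at 6 months, with an interval of -0.78 to -0.04, did not pass either.

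**Figure D2:**
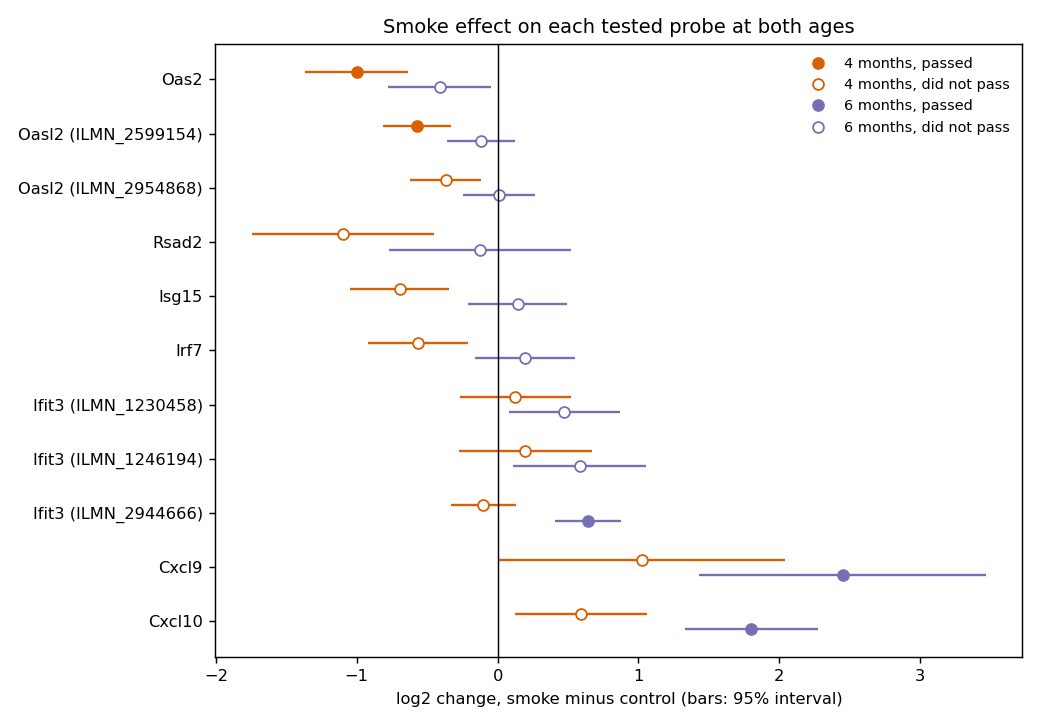
Change of each tested probe, smoke minus control, on the log2 scale at 4 months (upper point of each pair) and 6 months (lower point), with 95% intervals from limma; filled points passed. At 4 months the probes of Oas2, Oasl2, Rsad2, Isg15 and Irf7 and the brightest Ifit3 probe lie below 0. The dimmer Ifit3 probes, Cxcl9 and Cxcl10 lie above 0 at that age. The 6-month point lies to the right of the 4-month point in all 11 probes.

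Whether the smoke effect differed between the 2 ages was asked with the difference of the 2 smoke effects, 6 minus 4 months. The difference was above 0 in all 8 tested members and passed in none of them, as in 0% of all genes tested. The smallest limma adjusted p was 0.260, for the brightest Ifit3 probe, with a difference of 0.74 (95% interval 0.41 to 1.07). The dimmer Ifit3 probes differed by 0.35 (-0.21 to 0.91) and 0.39 (-0.28 to 1.05), and both intervals took in 0. At an unadjusted p below 0.05, limma counted 7 of the 8 members, against 8.30% of all genes. The median difference was 0.80 for the members and 0.01 for all genes. The 8 genes come from the same 12 arrays and are not replicates of one another. They were chosen with earlier results of these data known. How far that choice sets them apart from all genes, here and in the other comparisons, was not tested.

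By gene, the differences lay between 0.38 (Oasl2) and 1.43 (Cxcl9). Oas2 differed by 0.59 (95% interval 0.07 to 1.11), Rsad2 by 0.98 (0.06 to 1.89), Isg15 by 0.84 (0.34 to 1.34) and Irf7 by 0.76 (0.26 to 1.26). Cxcl10 differed by 1.21 (0.55 to 1.88), and the interval of Cxcl9 took in 0 (-0.01 to 2.86). In Oas2, Oasl2, Rsad2, Isg15 and Irf7 the change at 4 months was the one farther from 0, and in Ifit3, Cxcl9 and Cxcl10 it was the change at 6 months.

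Arrays of 6 months were compared with arrays of 4 months among the controls and, separately, among the smoke lungs. In smoke lungs age cannot be told apart from the length of the exposure, which the labels do not give. A batch that differed between the ages could not be told apart from age in either comparison. These comparisons share arrays with the smoke comparisons above. In control lungs all 8 members had lower means at 6 than at 4 months, none passed (0.0569% of all genes were called), and 3 did not overlap (8.65% of all genes, lower). These were Oas2 (-0.52), Oasl2 (-0.31) and Ifit3 (-0.26, brightest probe). The dimmer Ifit3 probes changed by -0.03 and -0.02, with overlapping arrays. The median change was -0.34, and that of all genes -0.01. With limma's unadjusted p below 0.05, 5 of 8 were counted, against 17.8% of all genes.

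In smoke lungs all 8 members had higher means at 6 than at 4 months, again with none past the test (0.019% of all genes were called). The arrays did not overlap in 5 of the 8 (11.5% of all genes, higher). These were Cxcl9 (1.17), Cxcl10 (0.78), Ifit3 (0.49), Isg15 (0.42) and Irf7 (0.38), and Rsad2 changed by 0.96 with overlapping arrays. In raw intensity, before normalization, Cxcl9 and Cxcl10 did not overlap either, and Ifit3 (brightest probe), Isg15 and Irf7 did. The raw values of the brighter Oasl2 probe were lower on every smoke array of 6 months. Oas2 and Oasl2 changed by 0.07 each, and with arrays scaled to equal medians these changes were -0.074 and -0.065. The median change was 0.45, and that of all genes 0.01. With limma's unadjusted p below 0.05, 6 of 8 were counted, against 10.8% of all genes.

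Over the 4 groups the members had 2 pairs of highest and lowest groups, with the groups between them in different orders. Control lungs at 4 months had the highest mean and smoke lungs at 4 months the lowest in 5 members, and smoke lungs at 6 months the highest and control lungs at 6 months the lowest in the other 3. For Oas2 the means were 7.83 ± 0.17 in control lungs at 4 months, 7.31 ± 0.32 in control at 6 months, 6.90 ± 0.13 in smoke at 6 months and 6.83 ± 0.24 in smoke at 4 months (SD, n = 3). Only the last 2 groups overlapped. For Isg15 they were 8.26 ± 0.39, then 7.98 ± 0.12 in smoke at 6 months, 7.84 ± 0.13 in control at 6 months and 7.56 ± 0.05 in smoke at 4 months, with overlap between the first and the second and between the second and the third group. Oasl2, Rsad2 and Irf7 shared the highest and the lowest group with these genes. For Rsad2 the 2 control means were nearly equal, at 9.45 ± 0.42 at 4 months and 9.43 ± 0.28 at 6 months. Which of them was higher turned in 3 of 12 fits with 1 array left out.

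For Cxcl10 the order was smoke at 6 months (6.79 ± 0.04), smoke at 4 months (6.02 ± 0.31), control at 4 months (5.42 ± 0.47) and control at 6 months (4.99 ± 0.23). The 2 smoke groups did not overlap, and the later neighbours in this order did. Cxcl9 had the same order, at 9.01 ± 0.25, 7.84 ± 0.39, 6.82 ± 0.98 and 6.56 ± 0.91. On its brightest probe Ifit3 had control (10.39 ± 0.11) above smoke (10.29 ± 0.12) at 4 months. These means lay between 10.77 ± 0.11 in smoke and 10.13 ± 0.08 in control lungs at 6 months. Of the neighbouring groups on that probe only the first and the second did not overlap. The dimmer Ifit3 probes, ILMN_1230458 and ILMN_1246194, had the order of the chemokines. Their means at 4 months were 7.93 and 8.02 in control and 8.06 and 8.21 in smoke lungs. Of the genes with an ISRE core shown above, Rsad2 and Isg15 thus shared one pair of highest and lowest groups, and Ifit3 and Cxcl10 the other. The highest group of Rsad2 was a near tie between the control groups.

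The other genes of the interferon pathway were taken from 9 lists, counted in the same way. Of all tested genes, 0.37% were called lower and 1.28% higher at 4 months, and 1.73% and 3.35% at 6 months. Over all tested genes, 14.8% were counted at limma's unadjusted p below 0.05 in either direction at 4 months and 17.4% at 6 months, against which the unadjusted counts below are to be read. None of the 4 tested interferon genes, of 17 with a probe, passed at either age (at limma's unadjusted p below 0.05, 1 was lower at 4 months and 0 were counted at 6 months). Ifng, which encodes interferon-gamma and was detected on 8 of the 12 arrays, changed by -0.31 at 4 months and 0.35 at 6 months (limma adjusted p = 0.444 and 0.339). Of the 10 tested receptor and JAK-STAT genes none passed at either age (2 and 1 higher at the unadjusted p). Stat2 and Irf9, partners in the ISRE-binding complex, changed by -0.28 and -0.23 at 4 months and by 0.01 and 0.00 at 6 months. Ifngr1 changed by 0.10 and -0.25. The Ifnar1 probe was detected on no array, and Mx1 was not tested.

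Of 13 tested nucleic acid sensors and adaptors, 1 was called higher at each age. This was Tlr7, the endosomal receptor for single-stranded RNA, which rose by 0.67 at 4 months and 0.66 at 6 months (limma adjusted p = 0.0219 and 0.0117). At 4 months it passed in 8 of 12 fits with 1 array left out, with a limma adjusted p of up to 0.10 and no call without any of the smoke arrays or control replicate 2 of that age, and with the 6-month arrays fitted alone its limma adjusted p at 6 months was 0.0512. None of 5 interferon regulatory factors other than Irf7 and none of 6 negative regulators passed at either age (at limma's unadjusted p, 0 factors were counted at 4 months and 2 were higher at 6 months, and of the negative regulators 1 was higher and 2 lower at 4 months and 1 higher at 6 months). Usp18, the protease that removes Isg15 and restrains IFNAR signalling, changed by -0.45 at 4 months (limma adjusted p = 0.0756), with no overlap, and by -0.06 at 6 months. The 3 tested enzymes of Isg15 conjugation and removal, Uba7 (-0.26), Ube2l6 (-0.45) and Usp18, were all lower on every smoke array at 4 months (12% of all genes). None of the 3 passed, all 3 were counted at limma's unadjusted p (14.8% of all genes), and Uba7 and Ube2l6 were chosen after their values were seen.

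Of the 7 other OAS and IFIT genes tested, none passed at 4 months (0 at limma's unadjusted p below 0.05), when all 7 had lower means in smoke (median -0.18). At 6 months 1 was called higher, Oas1g, which rose by 0.53 (limma adjusted p = 0.0495) after a change of -0.26 at 4 months. It passed in 2 of 12 fits with 1 array left out, those without control replicate 1 or 2 at 4 months, and its limma adjusted p was up to 0.169 in the others. Of 25 other antiviral interferon-induced genes, 1 was called lower at 4 months and none at 6 months. At limma's unadjusted p below 0.05, 3 were higher and 6 lower at 4 months, and 2 higher and 1 lower at 6 months. The gene called lower was Mx2, a dynamin-like antiviral GTPase, which fell by 0.62 (limma adjusted p = 0.0420) and changed by 0.05 at 6 months. Mx2 passed in 3 of 12 fits with 1 array left out, those without a control array of 6 months, with a limma adjusted p of up to 0.195 in the others and a change of -0.54 to -0.67. Its change was -0.35 with an offset of 50 and -0.95 with no further background correction, and it passed in neither (limma adjusted p = 0.0704 and 0.0512) nor in the authors' deposited values (0.0665). Of 18 genes known chiefly for induction by interferon-gamma, none passed at either age (5 and 1 lower at the unadjusted p). At 4 months 17 of these 18 had lower means in smoke, 9 with no overlap (12% of all genes), and their median was -0.23, against 0.03 at 6 months. Cxcl9 and Cxcl10, which are not in that list, had higher means at 4 months.

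**Figure D3:**
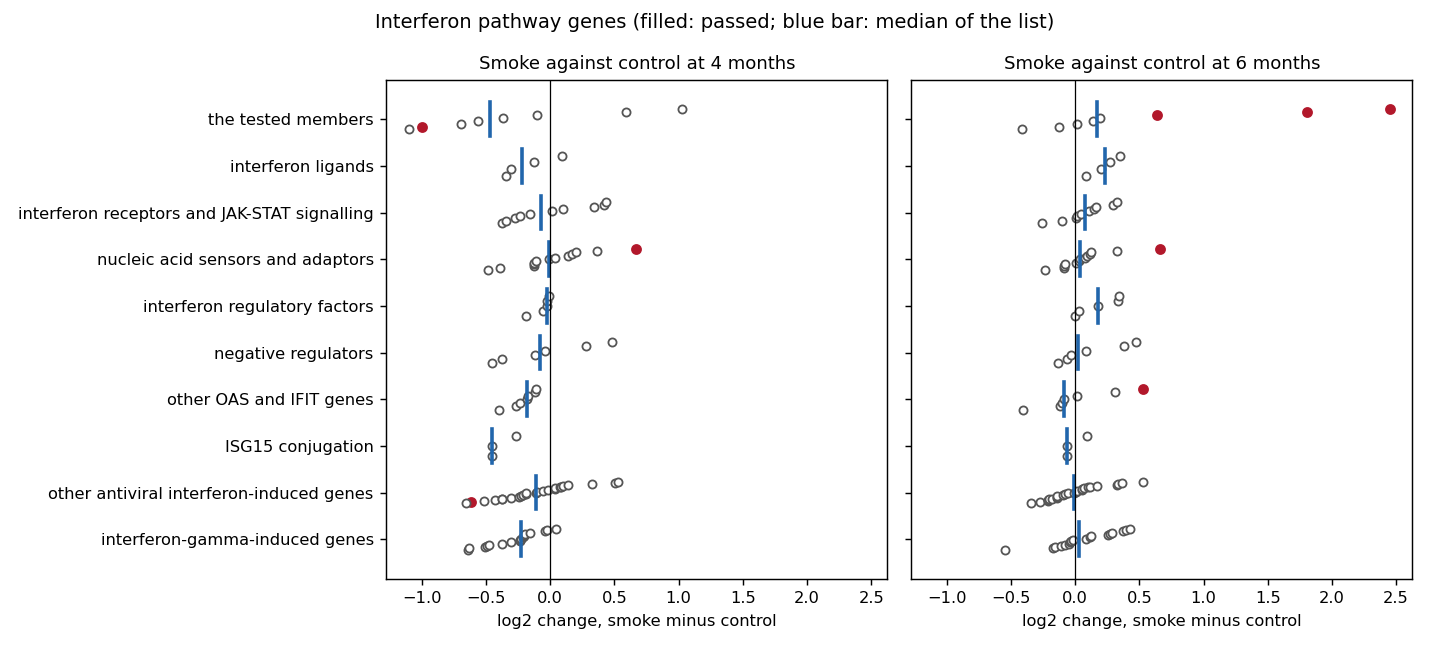
Change of each tested gene, smoke minus control on the log2 scale, in the 8 tested members and 9 lists of interferon pathway genes, at 4 months (left) and 6 months (right); each circle is 1 gene, filled circles passed and the vertical bar is the median of a list. The median of the members was -0.47 at 4 months and 0.17 at 6 months, and in the lists Tlr7, Oas1g and Mx2 are the filled circles.

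Markers of the cells that answer to CXCL9 and CXCL10, or that make interferon, are given beside these results. Of 13 tested markers of T and NK cells with Cxcr3, none was called higher. At 4 months 2 were called lower (0.37% of all genes), and at 6 months 1 was (1.73%). Means in smoke were higher in 3 and lower in 10 at 4 months, and higher in 6 and lower in 7 at 6 months. At limma's unadjusted p below 0.05, 4 were lower at 4 months (14.8% of all genes in either direction). At 6 months 2 were higher and 3 lower by that count (17.4%). Klrd1 (CD94), a receptor chain of NK cells, fell by 0.61 and 0.69 (limma adjusted p = 0.0235 and 0.00563). Nkg7, a granule protein of cytotoxic cells, fell by 0.64 at 4 months (limma adjusted p = 0.0236) and changed by -0.21 at 6 months. At 4 months each passed in 8 of 12 fits with 1 array left out, with limma adjusted p up to 0.132. With the 4-month arrays fitted alone the limma adjusted p was 0.0607 for Klrd1 and 0.0561 for Nkg7. Klrd1 lost its call without smoke replicate 2 or 3 or control replicate 1 or 2 of that age, and Nkg7 without any of the smoke arrays or control replicate 1. Cxcr3 itself read 6.89, 6.00 and 6.60 in control and 6.19, 5.86 and 6.50 in smoke lungs at 4 months, and 6.06, 6.71 and 7.24 in control and 6.74, 7.15 and 7.35 in smoke lungs at 6 months. The groups overlapped at both ages, with changes of -0.31 and 0.41 (limma adjusted p = 0.657 and 0.551).

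The summed log2 level of the 13 markers was 90.3 to 97.6 in control and 89.1 to 91.7 in smoke lungs at 4 months, and 92.3 to 95.8 and 92.9 to 94.3 at 6 months. Plasmacytoid dendritic cells make much type I interferon. Of 10 tested markers of these cells, 8 had lower means in smoke at 4 months and 6 at 6 months. At limma's unadjusted p below 0.05, 3 and 2 were lower and none higher (14.8 and 17.4% of all genes in either direction). At each age 1 was called lower (0.37 and 1.73% of all genes). This was Upb1, an enzyme of pyrimidine breakdown, which fell by 1.09 at 4 months and 0.65 at 6 months (limma adjusted p = 0.00266 and 0.0288). It was detected on all control arrays but on 1 of 3 smoke arrays at 4 months and 2 of 3 at 6 months, and with an offset of 50 the changes were -0.58 and -0.34. At 6 months it passed in 7 of 12 fits with 1 array left out, with no call without any of the 6 arrays of that age but smoke replicate 3, and the mean over its probes changed by -0.28 (limma adjusted p = 0.257). The sum over the 10 was 77.5 to 81.1 in control and 76.6 to 78.0 in smoke lungs at 4 months, and 78.9 to 80.2 and 77.9 to 79.8 at 6 months.

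Markers of monocytes and macrophages were mostly higher in smoke. Of 15 tested, 11 were called higher at 4 months (1.28% of all genes) and 13 at 6 months (3.35%). The median changes of these markers were 1.12 and 1.46. Their sum was 121 to 128 in control and 146 to 149 in smoke lungs at 4 months, and 122 to 124 and 145 to 149 at 6 months, so the smoke and control arrays were apart at both ages. This list was higher at 4 months, when Oas2 was lower, and at 6 months, when Cxcl9, Cxcl10 and Ifit3 were higher. The part of these cell types in the results on the members was not tested.

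Across the 12 arrays the members did not vary as 1 block. As a description over 12 arrays that share group differences, Cxcl9 and Cxcl10 correlated at Pearson's r = 0.92, Cxcl10 and Ifit3 at 0.82, Rsad2 and Isg15 at 0.78 and Oas2 and Oasl2 at 0.69. Oas2 correlated with Cxcl9 at -0.47 and with Cxcl10 at -0.57. After the group means were taken out, r was 0.71 for Cxcl9 with Cxcl10 and 0.72 for Rsad2 with Isg15, and 0.06 for Oas2 with Oasl2. The highest such r was 0.78, for Isg15 with Cxcl10, and Isg15 with Cxcl9 (0.72), Rsad2 with Ifit3 (0.70) and Rsad2 with Cxcl10 (0.61) were of like size. Oas2 with Cxcl9 turned from -0.47 to 0.42, and Oasl2 with Rsad2 from 0.16 to -0.53.

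The mean of the members' standardized levels was 0.91, -0.04 and 0.66 in control lungs at 4 months and -0.43, -0.91 and -0.45 in smoke lungs. At 6 months it was -0.53, -0.25 and -0.41 in control and 0.62, 0.55 and 0.28 in smoke lungs. Smoke arrays were thus below all controls at 4 months and above all controls at 6 months on this mean. The genes whose levels were most like it over the 12 arrays were Espl1 (r = 0.87), Oas1g (0.87), Cdc20 (0.85), Sp140 (0.85), Gpr3 (0.83), Gapt (0.82), AI467606 (0.80) and Tspo2 (0.80). Of these, Oas1g is a relative of Oas2. What makes any of these genes like the members was not tested. Within groups, with the group means taken out, the most alike were Angptl7 (0.90), Septin6, Pbk, Cd8b1 and Chst12 (0.89 each).

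**Figure D4:**
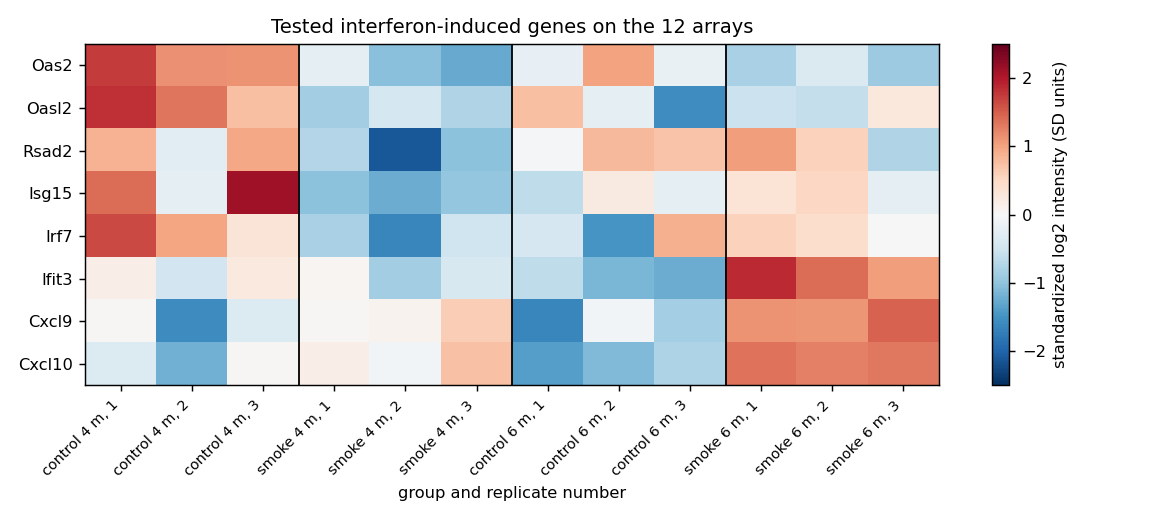
Heat map of the standardized log2 level (SD units over the 12 arrays) of the 8 tested members, 1 row a gene and 1 column an array, ordered by group and replicate number. By group mean, Oas2 to Irf7 are highest in control lungs at 4 months, and Ifit3, Cxcl9 and Cxcl10 in smoke lungs at 6 months, where the mean over the 8 genes was 0.28 to 0.62 (the highest single array of Rsad2 is a smoke array of 6 months).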

How the data were processed

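The members and the gene lists were chosen with earlier results of these data known. Per the labels, total RNA was taken up on RNeasy columns, treated with DNase and amplified with an Illumina TotalPrep kit with a biotin label. The table that the authors deposited holds, per the file headers, a raw intensity and a detection p-value for every probe and array, and its intensity scale is linear. On each array 18.3 to 21.0% of the raw intensity values lay below 0, so a background had been taken off before deposit. How this was done, the scanner software and how the authors normalized their second intensity table were not stated in any source used.

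Raw intensity was passed through neqc of limma 3.58.1 in R 4.3.3, which read its negative controls off the detection p-values, added an offset of 16, applied quantile normalization and took log2. The offset makes changes of dim probes look smaller. A probe was kept if its detection p was below 0.05 on 3 or more of the 12 arrays (15490 probes, 10541 named genes). The platform gave 1 symbol to 23978 probes and 1719 are unnamed here. In counts, each gene was represented by its brightest kept probe. One fit over the 12 arrays (lmFit and eBayes, a mean for each group, 8 residual and 4.54 prior degrees of freedom) gave two-sided p-values, adjusted by Benjamini-Hochberg over the probes kept. Non-overlap means that every array of one group lay on the same side of every array of the other.

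Named outside the members are genes of the lists that passed, at most 5 per list and comparison by smallest p, and, whatever their values, Stat2, Irf9, Ifnar1, Ifngr1, Usp18, Mx1, Cxcr3 and Ifng. An item of that rule is not reported here. Of the macrophage markers only counts are given. The genes most alike are the 8 and 5 with the highest Pearson correlation to the members' mean standardized level. The fits were tested on simulated data with known changes, and no arrays were duplicates of one another. Alternatives were other values, offsets, scalings, filters, weights, variance models, sample sets and probe rules, a replicate block and leaving out each array.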

Additional observations from a re-analysis of the deposited data

How the results depend on the processing

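The count of members called at 4 months, 1 as reported, was 2 with the authors' deposited values, with an offset of 50, with scaling to equal medians and with limma's trended robust variance. It was 3 with the mean over a gene's probes and 5 with array weights, and 0 to 2 with 1 array left out. The cause was not tested. The count for age in smoke lungs, 0 as reported, was 2 with array weights (Ifit3 and Cxcl10). The counts at 6 months (2 or 3), for age in control lungs and for the difference of the smoke effects (0 in every alternative and with any array left out) stayed within 1.5 times the reported count. Of 640 gene values under other settings, 7 turned their sign, all of them changes that had not passed. With equal medians, Oasl2 changed by -0.040 at 6 months, and Oas2 and Oasl2 by -0.074 and -0.065 with age in smoke lungs. With array weights, the dimmer Ifit3 probes changed by 0.10 and 0.15 with age in control lungs. With the mean over probes, Ifit3 changed by 0.074 at 4 months and Oasl2 by -0.053 at 6 months. With 1 array left out, the change at 6 months ranged from -0.35 to 0.19 for Rsad2 and from -0.10 to 0.11 for Oasl2. With age in control lungs it ranged from -0.81 to 0.19 for Cxcl9, from -0.26 to 0.15 for Rsad2, and from -0.15 to 0.19 and -0.16 to 0.24 for the dimmer Ifit3 probes. With age in smoke lungs it ranged from -0.029 to 0.20 for Oas2. Same-numbered arrays of compared groups had deviations that correlated at -0.24 to 0.25, and 6 of 24 arrays correlated best with their own number, so the numbers were not taken to pair the samples. With the replicate block the count was 1 at 4 months and 3 at 6 months, as without it, and for the other lists Tlr7 (limma adjusted p = 0.0572), Klrd1 (0.0519), Nkg7 (0.0564) and Mx2 (0.0882) at 4 months and Oas1g (0.0679) at 6 months did not pass with it. With the arrays of 6 months fitted alone, Upb1 (0.0712) and Oas1g (0.0541) did not pass either. A slide block could not be run, since the headers name no slides. Cxcl10 was not tested with only probes detected on all 12 arrays. The number of arrays and, for Irf7 and Cxcl10, a signal near background limit the precision.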
